A study of Mus musculus with 6 samples.

Results

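The enolase set comprised 4 genes, Eno1, Eno1b, Eno2 and Eno3, of 53458 genes to which the deposited transcripts could be assigned, with 36 of 136176 transcripts. The genes were chosen by name because Eno1b stood far apart between Asxl1 genotypes in these same libraries, so every difference between genotypes in the 4 genes and in the sum of Eno1 and Eno1b is given as a description, with no test. RNA sequencing had been done on leukemic blasts of a mouse model of acute myeloid leukemia in the C57/BL6 strain. All 6 libraries carried the Cebpa-/p30 genotype, in which the myeloid transcription factor gene Cebpa has a null allele and an allele that makes only the short p30 isoform. The 3 control libraries were labelled Asxl1 WT, and the other 3 carried the G643W allele of the chromatin regulator gene Asxl1 in both copies (G643W/G643W, below G643W). Blasts came from the marrow of leukemic mice that had received transplanted cells, and were sorted as CD45.2+ cells negative for Ter119, B220 and CD3 with low Mac1 and Gr1. The ages of the mice were not given. The labels did not say whether libraries of a genotype traced to separate primary leukemias, so the spread between libraries may be partly technical. The errors and p-values below may then not cover differences between leukemias of the same genotype.

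Enolase catalyses the step of glycolysis that converts 2-phosphoglycerate to phosphoenolpyruvate, the substrate of pyruvate kinase. Eno1 encodes the alpha subunit made in nearly all cells, Eno2 the gamma subunit known from neurons and Eno3 the beta subunit known from muscle. A retrocopy is a gene copy made from a processed messenger RNA, so it keeps the exon sequence of its parent without the introns between, and reads from parent and copy can be told apart only where their bases differ. Eno1b is such a relative of Eno1, annotated as protein-coding.

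The main Eno1 transcript, Eno1-202, had 2027 bases in 12 exons. The Eno1b transcript had 2 exons in the GENCODE M21 annotation, of 111 and 1680 bases around an intron of 1287 bases, with the whole coding sequence in the second exon. Its length was 1791 bases in that annotation and 1757 bases in the deposited tables, a difference of 34 bases, so the sequence comparison applies to the annotated model. Eno1-202 and the Eno1b transcript aligned over 1652 bases at 99.455% identity, which covered 81.5% of the Eno1 transcript and 92.2% of the Eno1b transcript. The aligned stretch held 9 differing bases and no gap. Of these, 8 lay in the coding sequence, all at the last base of a codon without changing the amino acid, and 1 lay downstream of the stop codon. Both coding sequences had 1302 bases and encoded the same protein. The longest run without a difference was 751 bases long, from base 373 to base 1123 of Eno1-202. The Eno1 stretches that carry the 8 coding differences are shown because they are the only coding bases by which a read can be assigned to one gene or the other. They are on the forward strand of GRCm38, and capitals mark the bases at which Eno1b differs.
Eno1 exon 8, chr4:150246620-150246660: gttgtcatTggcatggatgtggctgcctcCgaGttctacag
Eno1 exon 8, chr4:150246708-150246728: ggtacatcacTcccgaccagc
Eno1 exon 9, chr4:150247624-150247649: atcggctcTgtgaccgaAtccctgca
Eno1 exon 11, chr4:150248100-150248119: aagtacaaTcagatcctCag

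**Figure D1:**
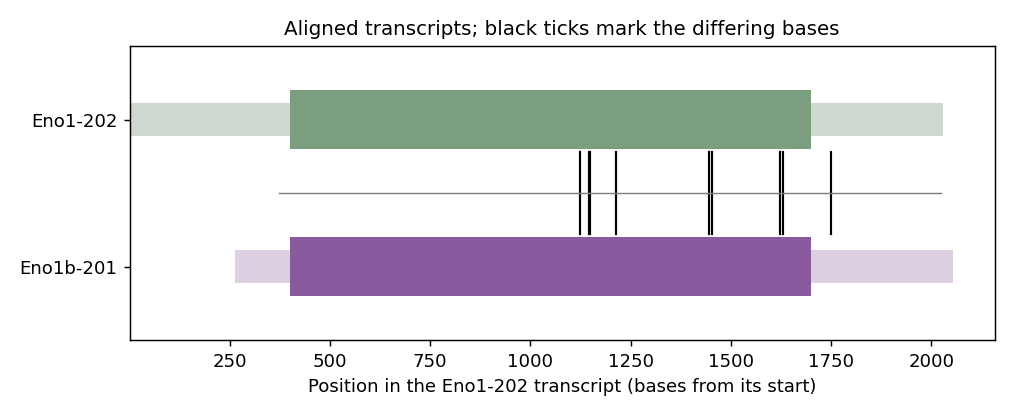
Aligned Eno1-202 and Eno1b transcripts, with position in Eno1-202 in bases on the x axis, thick boxes for coding sequence, thin boxes for untranslated sequence, a grey line for the aligned stretch and black ticks for the 9 differing bases. All 9 ticks lie in the later portion, after a run of 751 identical bases.

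On GRCm38, Eno1 (ENSMUSG00000063524) lies on chromosome 4 from 150236721 to 150248879, Eno1b (ENSMUSG00000059040) on chromosome 18 from 48045335 to 48048412, Eno2 (ENSMUSG00000004267) on chromosome 6 from 124760053 to 124769673 and Eno3 (ENSMUSG00000060600) on chromosome 11 from 70657202 to 70662513. Eno2 is on the reverse strand and the other three are on the forward strand. No other gene in the tables overlapped any of them.

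The share of each transcript that belongs to it alone depended on the length of sequence read. Windows of 50 bases found in no other gene's transcript made up 15.5% of those along the Eno1b transcript (270 of 1742), and 32.1% of those along Eno1-202 (634 of 1978). At 100 bases the shares were 26.6% for Eno1b and 45.3% for Eno1. Within the aligned stretch they were lower, 8.17% for Eno1b and 16.2% for Eno1 at 50 bases. A further Eno1-like sequence, the processed pseudogene Gm4735 on chromosome 2, carried the Eno1b base at 5 of the 8 coding sites and the Eno1 base at 3. The read length was not given in the sources used here. Reads that lie within the aligned stretch and carry no differing base fit both genes, and Salmon divides such reads by its model. The split between Eno1 and Eno1b is therefore an estimate, while the sum of their reads is not affected by it.

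The libraries held 61167075 to 101189225 estimated reads each, and none of the 15 pairs of libraries looked like repeats of the same library. Of 20654 genes tested, 25 were called between genotypes (0.121%; edgeR quasi-likelihood test, Benjamini-Hochberg adjusted p under 0.05), 11 higher (0.0533%) and 14 lower (0.0678%) in G643W. Asxl1 itself was at 71.6 ± 16.1 CPM in WT and 138 ± 31.4 CPM in G643W (SD, n = 3 each), and such a count does not read the mutated base. All 8 blast or progenitor markers reached 1 TPM in a library. Their summed level was 778 to 3128 TPM in WT and 860 to 3800 TPM in G643W. Flt3 stayed below 1 TPM in G643W, at 0.38, 0.20 and 0.89 TPM, beside 5.78, 3.14 and 2.28 TPM in WT. Cd34 was also lower in every G643W library (38.3, 5.82 and 19.9 TPM) than in every WT library (64.7, 94.0 and 42.7 TPM). The groups of the other markers on this list overlapped. The 8 neutrophil markers were also all present, at 2495 to 77861 TPM in WT and 16053 to 175678 TPM in G643W, although the sort took Gr1-low cells. In bulk samples, fewer cells of a type and less RNA per cell cannot be told apart.

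Salmon assigned many reads to Eno1b in all 3 WT libraries and very few in the G643W libraries. Its estimated reads were 22902, 21204 and 35367 in the WT libraries, in the order 1 to 3, and 87.6, 62.4 and 32.8 in the G643W libraries in the same order. Scaled to library size with TMM factors (CPM, the reads per library scaled to a fixed total), it was at 301.1, 300.2 and 469.8 in WT and at 1.28, 0.70 and 0.44 in G643W. Every WT library lay far above every G643W library. The means were 357 ± 97.6 and 0.81 ± 0.43 CPM (SD, n = 3 each), 442-fold apart, with a log2 difference of -8.79 ± 0.56 (edgeR estimate and standard error). The G643W values were above the 3 reads that a count of 0 would allow. They are few beside the 71161.5 to 113386 reads given to Eno1 in the same libraries. The tables hold neither the bases of the reads nor their positions. The annotated Eno1b transcript also has 109 bases before and 30 bases after the aligned stretch, and how many reads lay there is not known. Less Eno1b RNA and another sequence at the 9 differing bases of Eno1 or Eno1b in the mice therefore cannot be told apart here.

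Eno1, the enolase of most cells, varied widely within the WT group. It was at 612, 746 and 1244 CPM in the WT libraries, in the order 1 to 3, and at 1040, 1274 and 1391 CPM in the G643W libraries in the same order. WT library 3 lay inside the G643W range, so the groups overlapped. The means were 867 ± 333 CPM in WT and 1235 ± 179 CPM in G643W, a log2 difference of 0.51 ± 0.34. Without WT library 3 it was 0.94. Summed neutrophil marker levels were also higher in WT library 3 (77861 TPM) than in WT libraries 1 and 2 (2495 and 13413 TPM), and higher in G643W libraries 2 and 3 (175678 and 107939 TPM) than in G643W library 1 (16053 TPM), and their part in the Eno1 level was not tested.

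The mean CPM of Eno1 and Eno1b summed, which does not depend on how shared reads were divided between the pair, was nearly the same in both genotypes. It was at 912, 1046 and 1714 CPM in the WT libraries and at 1042, 1275 and 1391 CPM in the G643W libraries. The range of the WT libraries enclosed all 3 G643W libraries. The means were 1224 ± 429 CPM and 1236 ± 178 CPM, with a log2 difference of 0.01 ± 0.33, an error that leaves room for a moderate difference in either direction. On the TPM scale, which divides by transcript length, the sum does depend on the division, since a read counts for more on a short Eno1 transcript. It was 511, 585 and 1030 in WT and 817, 867 and 1143 in G643W, 1.33-fold higher on average in G643W with overlapping groups. The log2 difference without WT library 3 was 0.41 in CPM.

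Eno1b thus received a large share of the pair's reads in WT and almost none in G643W. The share was 33.0%, 28.7% and 27.4% in the WT libraries, in the order 1 to 3, and 0.12%, 0.055% and 0.032% in the G643W libraries in the same order. The means were 29.7 ± 2.92% and 0.070 ± 0.047% (SD, n = 3 each). The 3 WT shares lay close together although the summed level of the pair differed between those libraries. By TPM, which gives short Eno1 transcripts more weight, the mean shares were 13.3% and 0.025%. Set against Eno1-202 alone, the Eno1b transcript held 43.1% and 0.12% of the reads.

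**Figure D2:**
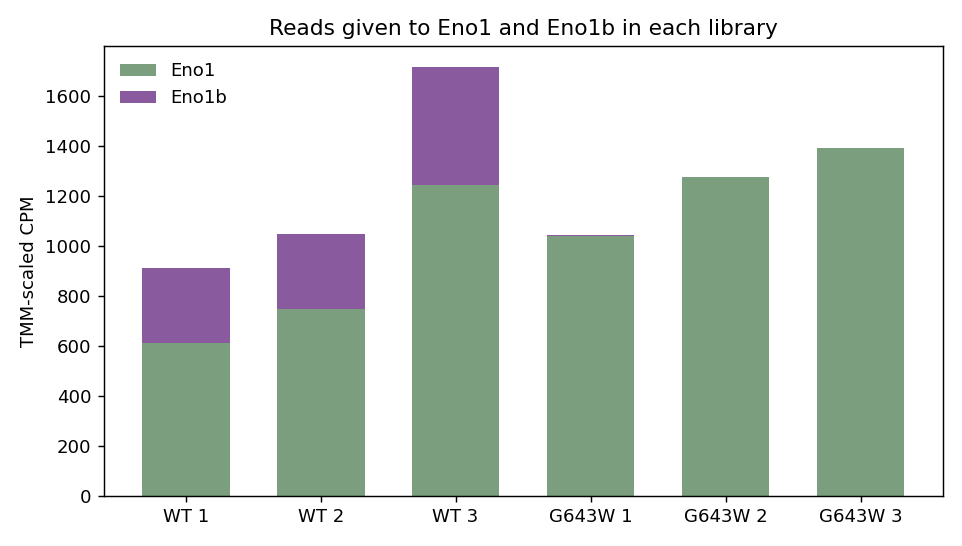
TMM-scaled CPM of Eno1 (green) and Eno1b (purple), stacked for each of the 6 libraries. The purple portion is 27.4% to 33.0% of the bar in the WT libraries and too small to see in the G643W libraries, while the bar heights of the groups overlap.

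Eno3, the muscle enolase, was present at a low level in every library. It was at 18.05, 9.82 and 16.4 CPM in the WT libraries and at 7.35, 4.83 and 6.67 CPM in the G643W libraries. Every WT library lay above every G643W library on this scale, with means of 14.8 ± 4.36 and 6.28 ± 1.30 CPM and a log2 difference of -1.23 ± 0.35. On the TPM scale the groups overlapped, with 15.9, 6.93 and 13.9 TPM across WT and 7.97, 3.77 and 5.17 TPM across G643W. Of the 8 muscle markers, 2 reached 1 TPM in a library (Ckm and Tnnt3) and none was at 0 in all libraries. Their summed level was 8.22, 15.7 and 20.4 TPM across WT and 14.1, 3.27 and 7.30 TPM across G643W. Ckm made up most of it, and without Ckm the sums were 1.03, 0.29 and 0.73 TPM across WT and 0.86, 1.56 and 2.12 TPM across G643W. The part of muscle cells in the Eno3 level was not tested.

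Eno2, the neuronal enolase, was close to undetected. It had 29.7, 7.30 and 6.60 estimated reads in WT and 16.4, 18.5 and 7.0 in G643W, or 0.088 to 0.39 CPM in WT and 0.095 to 0.24 CPM in G643W. The ranges overlapped, and the log2 difference of -0.12 ± 0.74 is too uncertain to give a direction: without WT library 1 it was 0.89. Of 7 neuron markers, only Tubb3 reached 1 TPM in a library, and that library was WT library 1, which also had the highest Eno2 level. The summed neuron markers were at 1.76 TPM there and at 0.12 to 0.53 TPM in the other 5 libraries. Tubb3 alone gave 1.33 TPM of the 1.76, and the other 6 markers summed to 0.44 TPM in that library, below the 0.52 TPM of G643W library 2. The part of neurons in the Eno2 level was not tested. Eno4, a distant enolase relative known from sperm, had 4 and 7 reads in WT library 1 and G643W library 2 and 0 in the other 4 libraries, where 0 allows up to 3 reads or 0.0390 to 0.0490 CPM before TMM scaling, and it was not tested.

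Of the 4 enolase genes, Eno1b and Eno3 had groups that did not overlap in CPM, both lower in G643W. Of all genes tested, 15.9% did not overlap in either direction, 7.05% with G643W higher and 8.89% with G643W lower. Since the genotype contrast chose the set, nothing is read from its count. Erythroid markers, with 2 of 6 at 1 TPM or more in a library, also had groups that did not overlap, with a summed level of 1.51 to 1.71 TPM in WT and 3.71 to 9.48 TPM in G643W. Dendritic cell markers, with 4 of 5, summed to 11.6 to 52.2 TPM in WT and 4.69 to 7.57 TPM in G643W, a gap carried by Cd209a. Cd209a was at 12.9, 44.7 and 4.36 TPM across WT and 0.21, 0.15 and 0.038 TPM across G643W. Without Cd209a the sums overlapped, at 4.06 to 7.57 TPM in WT and 4.48 to 7.53 TPM in G643W. Monocyte markers, all 5 at 1 TPM or more in a library, had overlapping sums, at 2070 to 3998 TPM in WT and 2648 to 3505 TPM in G643W. Without Ly6c2, the highest, the sums did not overlap, at 593, 501 and 271 TPM across WT and 252, 71.3 and 212 TPM across G643W. F13a1 and Ccr2 were lower in every G643W library than in every WT library, while Csf1r and Ms4a6c overlapped. No marker on these lists was at 0 in all libraries, and the part of these cells in the enolase differences was not tested.

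Compared per length, the order of the enolases changed with genotype. In WT it ran from Eno1 (616 ± 253 TPM) over Eno1b (92.3 ± 29.5 TPM) and Eno3 (12.2 ± 4.70 TPM) to Eno2 (0.052 ± 0.045 TPM). In G643W, Eno1 (942 ± 176 TPM) was followed by Eno3 (5.64 ± 2.13 TPM), Eno1b (0.22 ± 0.13 TPM) and Eno2 (0.042 ± 0.023 TPM). No neighbours in either order had overlapping ranges over the 3 libraries. Eno1 thus held 99.2% to 99.6% of all enolase reads in the G643W libraries and 65.7% to 71.9% in the WT libraries.

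**Figure D3:**
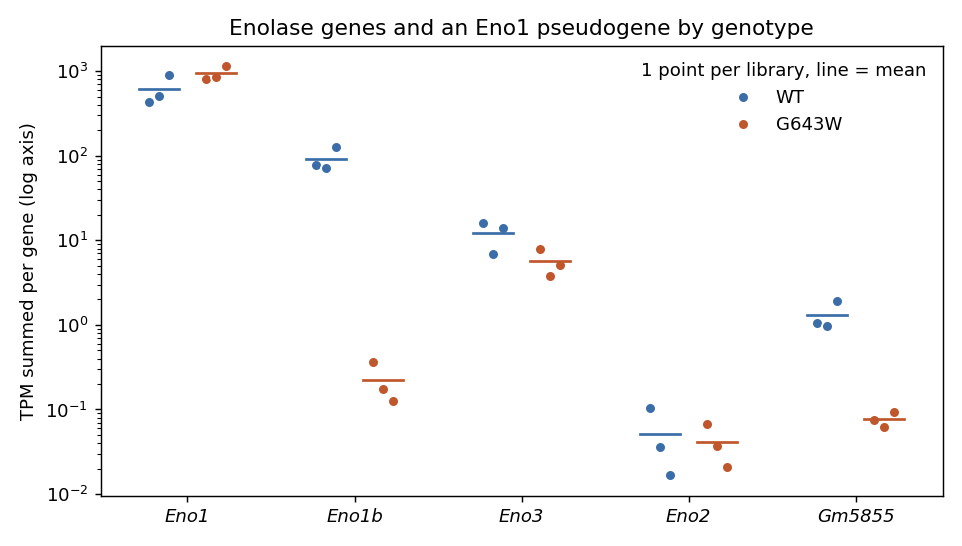
TPM summed per gene on a log axis for Eno1, Eno1b, Eno3, Eno2 and the Eno1 pseudogene Gm5855, with 1 point per library, a line at the group mean, WT in blue and G643W in orange. Eno1b and Gm5855 are the genes whose groups lie far apart, and the groups of the other three overlap.

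The transcripts of Eno1 differed among themselves in direction. All 11 annotated transcripts had reads, and Eno1-202, the full-length coding transcript, held 53.9% to 57.3% of the gene's reads in every library. Eno1-203, Eno1-204, Eno1-206, Eno1-207, Eno1-209 and Eno1-211 are annotated as retained-intron transcripts, and the others as protein-coding. Eno1-202 was at 75.6, 84.9 and 165 TPM across WT and 147, 158 and 184 TPM across G643W, with overlapping groups. Among transcripts with 1 TPM or more in a library, 15.4% of 41179 had groups that did not overlap, 9.33% with G643W higher and 6.05% with G643W lower.

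Eno1-204 differed most between genotypes by factor among the Eno1 transcripts of at least 1 TPM. This short transcript of 478 bases was at 3.49, 0.48 and 2.50 TPM across WT and 36.5, 31.7 and 48.2 TPM across G643W, 18.0-fold apart in the means. Eno1-206, of 686 bases, was at 48.4, 60.4 and 109 TPM across WT and 127, 147 and 195 TPM across G643W. Both had groups that did not overlap, and both cover the 4 differing positions in exon 8 and none of the later ones. Eno1-210 was at 28.4, 38.5 and 90.0 TPM across WT and 91.2, 110.0 and 138 TPM across G643W, groups that only just failed to overlap, and it covers no differing position. Eno1-203, with means of 0.62 and 1.05 TPM, had groups that did not overlap at a level of 0.46 to 1.15 TPM.

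Eno1-207 went the other way. This transcript of 578 bases covers 5 of the 9 differing positions, those from base 1445 to base 1749 of Eno1-202, and was at 39.6, 36.7 and 43.1 TPM across WT and 13.3, 8.84 and 18.7 TPM across G643W. Eno1-211, which covers 4 of those 5 positions, had groups that met at 217 TPM, at 107, 126 and 217 TPM across WT and 217, 234 and 303 TPM across G643W. The groups of Eno1-205, Eno1-208 and Eno1-201 also overlapped. Of the 11 Eno1 transcripts, 9 share 61.2% to 89.1% of their bases with Eno1b, and their separate levels are estimates of the same model that divided the reads between the genes.

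**Figure D4:**
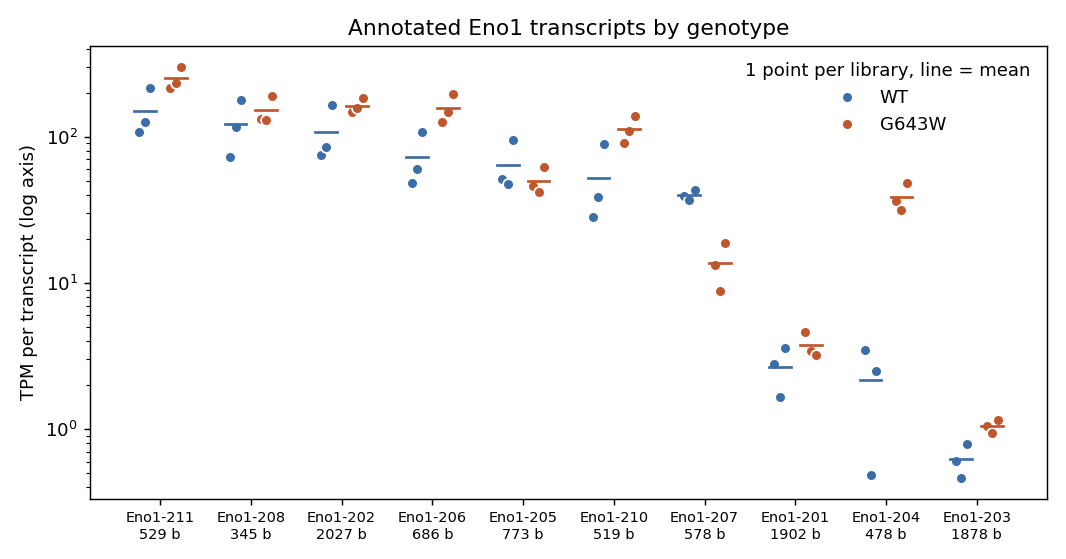
TPM on a log axis of the 10 Eno1 transcripts with at least 1 TPM in a library or 5% of the gene's reads, ordered by WT mean, with the transcript length in bases under each name, 1 point per library and a line at the group mean. Eno1-204 lies higher and Eno1-207 lower in all G643W libraries, while the most read transcript Eno1-202 overlaps.

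Of the other enolases, Eno2 had reads on 6 of its 16 transcripts and Eno3 on 7 of 8. Eno3-201 held most Eno3 reads, 47.1% to 70.0% in each library, and was at 3.12, 1.78 and 2.92 TPM across WT and 1.17, 0.86 and 1.54 TPM across G643W. Eno3-203 and Eno3-207 also had groups that did not overlap, lower in G643W, and Eno3-204, Eno3-205 and Eno3-208 overlapped. For Eno3-203 the gap was narrow, between 1.87 TPM in WT library 2 and 1.71 TPM in G643W library 1. Eno3-207 was listed at 0 in G643W library 3 and held 17.2% to 20.4% of the gene's reads in each other library. Eno3-208 was listed at 0 in WT library 2 and in G643W library 2 and held 11.7% to 20.9% of the gene's reads in the other 4 libraries. Only Eno2-212 among the Eno2 transcripts had reads in more than 1 library, and it had none in G643W library 3.

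Besides Eno1b, a sequence search found 2 further near-identical copies of Eno1, both processed pseudogenes. Gm5855, on chromosome 3 from 130929366 to 130930670, matched Eno1 at 96.3% identity over 1306 bases with 47 mismatches. Its estimated reads were 213, 201 and 380 in WT and 12.6, 15.7 and 17.4 in G643W, groups that did not overlap. The means were 3.56 ± 1.28 and 0.20 ± 0.032 CPM, 18.0-fold apart, with a log2 difference of -4.15 ± 0.50. This is a description without a test, since the contrast that chose Eno1b also bears on reads shared with it. Gm4735, on chromosome 2 from 80837141 to 80838442, matched at 99.6% over 1302 bases with 5 mismatches and had 0, 0 and 164 reads in WT and 70.0, 47.1 and 36.9 in G643W. Its log2 difference was -0.09 ± 1.77, and its groups overlapped. Reads that fit a pseudogene and Eno1 or Eno1b equally well are divided by the same model. Gm5855 differs at more bases by which its reads can be told apart, with 45 mismatches to Eno1b, beside 3 for Gm4735. How many reads were shared is not known.

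Near-identical copies were not a feature of the enolases alone, and the read split by genotype was compared over the pathway. With Eno1 and Eno1b set aside, 5 of the 35 glycolysis genes had a copy, defined by 95% identity or more across 50% or more of the transcript. The copies of Gapdh, of which there were 85, held 2.04 ± 0.11% of the reads of the gene and its copies in WT and 2.23 ± 0.073% in G643W, and the groups did not overlap. Those of Pgk1 held 1.99 ± 1.96% and 4.63 ± 0.58%, again without overlap. Those of Ldhb held 9.30 ± 8.53% and 1.35 ± 1.25%, with overlap, for a gene with 8, 54.9 and 5117 reads of its own in WT. The copies of Pkm and Ldha held less than 0.1% in each library. The 3 copies of Eno1 together held 29.9 ± 2.88% in WT and 0.14 ± 0.083% in G643W.

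The rest of glycolysis was described from a list of 35 genes in the order of the reactions, of which 31 could be tested. None was called between genotypes by edgeR, against 0.121% of all genes. At an unadjusted edgeR p under 0.05 there were 3, of which 2 were higher and 1 was lower in G643W, beside 9.66% of all genes. DESeq2 called 1, beside 2.26% of all genes it tested. These shares are near the background and are not a result about the pathway. The log2 difference was above 0 for 16 genes and below 0 for 15, and its median was 0.18, beside -0.01 over all genes tested. The groups did not overlap in CPM for 5 genes, or 16.1% beside 15.9% of all genes. The other 4 genes, among them Pgk2, Eno4 and Pklr, had too few reads to be tested.

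At the entry of the pathway, the glucose transporter gene Slc2a3 had the least settled level. It was at 17.4, 40.5 and 183 CPM in the WT libraries and at 10.6, 469 and 435 CPM in the G643W libraries (log2 difference 1.92 ± 1.30, edgeR adjusted p = 0.598), so that both the lowest and the highest library were G643W. Hk2, a hexokinase, averaged 119 CPM over the WT and 85.6 CPM over the G643W libraries without overlap (-0.47 ± 0.21, edgeR adjusted p = 0.527).

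Hk3, the hexokinase gene with the highest TPM here, had a log2 difference of 0.32 ± 0.23 with groups that overlapped in CPM. In TPM they did not overlap, at 108, 99.0 and 128 across WT and 144, 150 and 170 across G643W.

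No gene of the middle steps was called. Pfkl, the liver-type subunit of phosphofructokinase, was at 144, 143 and 169 CPM in the WT libraries and at 106, 97.2 and 109 CPM in the G643W libraries, a log2 difference of -0.54 ± 0.19 (edgeR adjusted p = 0.493) without overlap. Pfkfb1, which makes and degrades the activator of phosphofructokinase, was at 2.80 ± 0.96 and 5.70 ± 1.35 CPM (1.03 ± 0.42, edgeR adjusted p = 0.511). Pfkfb4, of the same family, had overlapping groups (0.59 ± 0.47). Gpi1 (0.44), Aldoa (-0.15), Tpi1 (-0.37), Gapdh (-0.14) and Pgk1 (0.21), the most highly expressed genes of the next steps, had overlapping groups and log2 differences under 0.5 in size.

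The enzymes next to enolase showed no called difference either. Pgam1, the mutase that supplies 2-phosphoglycerate, had a log2 difference of -0.05 ± 0.28 (edgeR adjusted p = 0.957), and Pkm, the pyruvate kinase that takes up phosphoenolpyruvate, one of 0.27 ± 0.37 (edgeR adjusted p = 0.78). Their errors were about as large as that of the sum of Eno1 and Eno1b. Ldha, which turns pyruvate into lactate, was at 489, 547 and 652 CPM across WT and 377, 434 and 419 CPM across G643W. The groups did not overlap in CPM (-0.46 ± 0.23, edgeR adjusted p = 0.538). In TPM they overlapped, at 225, 233 and 310 across WT and 199, 197 and 232 across G643W. The lactate exporter gene Slc16a3 had a log2 difference of 0.30 ± 0.35. A p that misses the threshold does not show that these levels were alike.

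**Figure D5:**
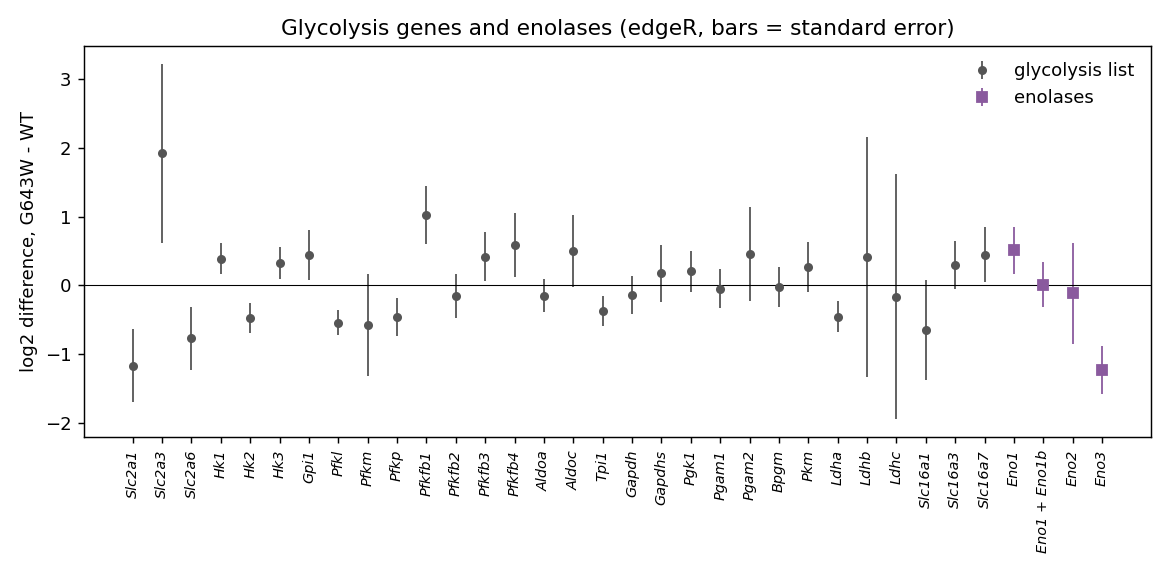
edgeR log2 difference (G643W minus WT) with its standard error for the tested glycolysis genes reported here, in the order of the pathway (grey), and for Eno1, the sum of Eno1 and Eno1b, Eno2 and Eno3 (purple). Eno1b, at -8.79, lies outside the range and is not drawn, and the sum lies at 0.01, within the range of the enzymes beside it.

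Genes with the pattern most like each enolase were ranked by Pearson correlation of log2 CPM over the 6 libraries among 8769 protein-coding genes with a mean of at least 10 CPM. With so many genes and 6 points, high values are to be found by selection, and all points share the same libraries and scaling, so the values are a description. Lyst, a regulator of lysosome size, was nearest to Eno1 (r = 0.9996), at 77.3, 131 and 474 CPM in the WT libraries and at 285, 492 and 603 CPM in the G643W libraries. Tbc1d2b and Abcd2 followed (0.997 each). Ctu2 (0.987), Samd1 (0.986) and Gatad2a (0.986) were nearest to Eno1b. Their levels differed far less, with Samd1 at 61.2 CPM in WT and 35.9 CPM in G643W. For all 3 genes every WT library lay above every G643W library, as for 8.89% of all genes tested. Since Eno1b varied mainly between genotypes, ranking by correlation with it picks such genes, so nothing is read from this. Hmox2 (0.996), Tent2 (0.992) and S1pr2 (0.987) were nearest to Eno3, and Ttyh3 (0.950), Gm11168 (0.944) and Dgkq (0.944) to the barely detected Eno2. For the sum of Eno1 and Eno1b they were Dram1 (0.979), Son (0.979) and Zdhhc5 (0.972), none of which was among the nearest to either gene alone.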

How the data were processed

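Libraries were made from total RNA of sorted blasts with a TruSeq V2 kit, per the labels' protocols. The authors deposited Salmon tables per transcript, which hold estimated counts of reads and TPM, per the file headers. Salmon 0.12.0 and bcl2fastq were used with mm10 and GRCm38.p6, per the submitters' processing notes, with the index, options, strand setting and read length not given in the sources used here. Effective lengths differed between libraries for 72.4% of transcripts.

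Transcripts were assigned to genes with GENCODE M21, of which 112 of 136288 did not match (at most 0.0365% of reads). Expected counts, as deposited by the authors, were summed per gene, rounded and fitted with edgeR 4.0.16 in R 4.3.3 (filterByExpr with a minimum count of 10, TMM factors, genotype alone as term, two-sided quasi-likelihood test, Benjamini-Hochberg adjustment over 20654 genes, threshold 0.05). The common biological coefficient of variation was 52.8%. The sum of Eno1 and Eno1b replaced both genes in the same model. TPM was summed per gene as deposited by the authors. Log2 differences are G643W minus WT. Copies were found with BLAST+ 2.17.0. The edgeR fit alone was tested on simulated counts. Alternatives used DESeq2 1.42.0 and limma 3.58.1 on log2(TPM + 1) and log2(TPM + 0.1), other scalings and filters, a replicate block and leaving out each library.

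The members, gene lists and alternatives were chosen with earlier results of these data known. Named were the members, their transcripts with at least 1 TPM in a library or 5% of the gene's reads, Eno4, the copies of Eno1, the most highly expressed list gene at each step, list genes called, the 2 with the lowest p in each direction, and the 3 nearest genes by correlation. Floors of 3 reads cover counting error only. Some genes of the list that this rule would name are not reported here.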

Additional observations from a re-analysis of the deposited data

How the results depend on the processing

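The count of called genes moved with the processing. Against 25 (11 higher, 14 lower), it was 16 without TMM factors (8 and 8), 104 when low counts were kept (37 and 67), 428 by DESeq2 (164 and 264), 5 on length-scaled counts (4 and 1), 43 by limma on log2(TPM + 0.1) (19 and 24), 2 among protein-coding genes alone (1 and 1), and 0 to 16 with a library left out. The 0 was without WT library 2, where 1277 genes had an unadjusted edgeR p under 0.05. With the replicate block it was 0 (1772 at an unadjusted p under 0.05). The labels do not say whether equal numbers pair the libraries. The deviations of same-numbered libraries correlated at 0.11, -0.16 and 0.18, and those of different-numbered libraries at -0.28 to 0.23. So few values cannot decide whether there was a pairing. Glycolysis genes called were 0 except for 1 by DESeq2.

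Eno1b was lower in G643W under all 15 alternatives, at -6.22 with limma on log2(TPM + 1), -8.19 with a pseudocount of 0.1 and -9.19 to -8.49 with a library left out. Eno3 was lower under all 15 (-1.42 to -0.97). Eno1 ranged from 0.31 to 0.94 with a library left out and Eno2 from -0.40 to 0.89. The sum of Eno1 and Eno1b was 0.40 with length-scaled counts, 0.46 and 0.47 with limma at pseudocounts of 1 and 0.1, and -0.16 to 0.41 with a library left out. With the block, Eno1, Eno1b, Eno2, Eno3 and the sum were at 0.57, -8.86, 0.09, -1.21 and 0.06. The Eno1b share in WT was 13.3% by TPM, 43.1% against Eno1-202 alone and 28.1% to 30.8% with a library left out, and in G643W 0.12% against Eno1-202 alone and 0.043% to 0.089%. Copy pairs numbered 97 at 95% identity, 46 at 98% and 202 at 90%. The cause of these shifts was not tested. Depth limits Eno2, with 6.60 to 29.7 reads, and Eno1b in G643W, with 32.8 to 87.6.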

Other observations

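Genes within 1 Mb of each enolase were described, a set chosen after the enolase values were seen. The groups did not overlap for 8 of 30 tested neighbours of Eno1 (7 lower and 1 higher in G643W). For Eno2 it was 10 of 60 (4 lower and 6 higher) and for Eno3 14 of 75 (11 lower and 3 higher). Of all genes tested, 15.9% did not overlap, 8.89% lower and 7.05% higher in G643W. Around Eno1b there were 4 genes in the tables, of which 1 was tested. That gene, Commd10, had a log2 difference of 0.04 and overlapping groups. Values of such a set carry no test of their own.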
